A study of Danio rerio and Xiphophorus maculatus with 12 samples.

Results

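The difference between 2 fish species in the heart's response to cryoinjury was described across genes: the change of each transcript after injury in zebrafish ventricles was set against its change in platyfish ventricles. A gene was a member when its lower-case symbol occurred exactly once in the table of each species. This matched 13662 genes, out of 32520 genes in the zebrafish table and 24209 in the platyfish table, and 8098 of them had enough counts in both species to be tested. A shared symbol does not establish that both genes descend from one ancestral gene.

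The 12 libraries were bulk stranded mRNA libraries from heart ventricles of wild-type (WT) adults, with atrium and bulbus arteriosus removed. They formed 4 groups of 3: zebrafish (Danio rerio) 7 days after ventricular cryoinjury, unmanipulated zebrafish, platyfish (Xiphophorus maculatus) 7 days after ventricular cryoinjury, and unmanipulated platyfish. With 8 ventricles pooled into every library, n = 3 means pools throughout, and the spread between single fish is not seen. Cryoinjury freezes a part of the ventricle wall, which dies and is replaced by repair tissue. One treatment label of the cryoinjured platyfish names zebrafish, whereas title, organism and library name give platyfish and were followed.

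As background, zebrafish regrow ventricular muscle after injury, passing through a phase in which fibroblasts lay down a collagen-rich matrix that is later removed, and the series' title describes the platyfish heart as only partly regenerating and keeping its scar. Collagen chains are hydroxylated, folded and assembled in the endoplasmic reticulum before secretion, and enzymes outside the cell then trim and cross-link them. Heart muscle is rich in mitochondria, whose few own genes are translated by a dedicated mitochondrial ribosome built from nuclear-encoded proteins, while all other mitochondrial proteins are imported and folded inside the organelle.

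Library totals ranged from 19073562 to 31148127 counts. Fewer genes were detected in cryoinjured zebrafish replicates 2 and 3, where 16530 and 15976 genes had a count, than in replicate 1 with 18264 genes or uninjured zebrafish with 18102 to 18819. Platyfish libraries had 18094 to 18693. The labelled tissue matched its markers: summed cardiomyocyte markers reached at least 38685 CPM (counts scaled to a common library total) in every library. They lay at 50734 to 60144 CPM in cryoinjured and 60651 to 69259 CPM in uninjured zebrafish, which did not overlap, and at 39262 to 45364 CPM in cryoinjured and 38685 to 42996 CPM in uninjured platyfish, which did. The sums held 10 of 11 markers in zebrafish and 6 of 11 in platyfish, so they are not the same set in both species. Exocrine pancreas markers, 3 of 5 with a row in platyfish, summed to 187 CPM in uninjured platyfish replicate 2. They summed to 7.29 and 3.93 CPM in uninjured replicates 1 and 3, and 3.05 to 7.77 CPM in cryoinjured platyfish. The tested marker prss1 was not high in replicate 2, with 4.09 normalised counts against 15.3 and 7.68. The part of pancreas transcripts in the results was not tested. In bulk tissue, fewer cells of a type and less RNA per cell cannot be told apart. Counts were scaled within each species, so the level of a gene in zebrafish and its level in platyfish come from separately normalised tables, and only the changes after injury were compared.

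For each gene, the response is the log2 ratio of cryoinjured to uninjured ventricles, and the difference is the zebrafish response minus the platyfish response, so that a positive value means a more positive response in zebrafish. One model over all 12 libraries (edgeR's quasi-likelihood test, Benjamini-Hochberg adjustment over 8098 genes, threshold 0.05) gave 92 genes with a more positive response in zebrafish, 1.14% of those tested, and 110 with a more positive response in platyfish, 1.36%. At an unadjusted p under 0.05 there were 732 and 846. The median difference over all genes tested was -0.05, with median responses of -0.03 in zebrafish and 0.01 in platyfish. With the replicate number, which the labels call a batch, as a block within each species, the counts were 36 and 47. DESeq2 gave 319 and 312, or 3.94% and 3.85% of the genes tested.

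The counts rested on single libraries to a large extent. The number more positive in zebrafish was 172 without cryoinjured zebrafish replicate 1 and fell below 92 by more than 1.5 times without cryoinjured zebrafish replicate 2 (45) or 3 (56), uninjured zebrafish replicate 1 (43) or 3 (41), cryoinjured platyfish replicate 3 (41), or uninjured platyfish replicate 1 (45) or 2 (31). The number more positive in platyfish was 308 without cryoinjured zebrafish replicate 1, 54 and 53 without uninjured zebrafish replicates 1 and 3, 53 without cryoinjured platyfish replicate 3, and 45 and 35 without uninjured platyfish replicates 1 and 2. Leaving out both cryoinjured zebrafish libraries that had few detected genes left a single library in that group. The counts of that fit appear only among the processing settings below, and no conclusion is drawn from them. Of the 92 genes, 23 kept their call whichever of the 12 libraries was left out, and of the 110 genes, 31 did; 19 and 23 kept it in all of these and with the block.

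Most genes on both sides had estimates of opposite sign in the 2 species, which the choice of genes with a large difference favours. Few passed the test in both species. Of the 92 genes more positive in zebrafish, 80 had a positive estimate in zebrafish and a negative one in platyfish, 11 were positive in both and 1 was negative in both. Of the 110 genes more positive in platyfish, 91 were negative in zebrafish and positive in platyfish, 17 were positive in both and 2 were negative in both. The species' own tests divided the sides differently. Among the 92, 33 rose in zebrafish, 1 of them (clu) also in platyfish, 32 fell in platyfish only, and 27 passed in neither species. Among the 110, 57 rose in platyfish only, 28 fell in zebrafish only, 3 did both, 4 rose in both, and 18 passed in neither. For scale, 106 of all genes tested rose (1.31%) and 69 fell (0.852%) in zebrafish in this fit, and 249 rose (3.07%) and 161 fell (1.99%) in platyfish. The median difference was 1.5 on the zebrafish side, from responses of 0.76 and -0.59, and -1.5 on the platyfish side, from -0.55 and 0.80.

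**Figure D1:**
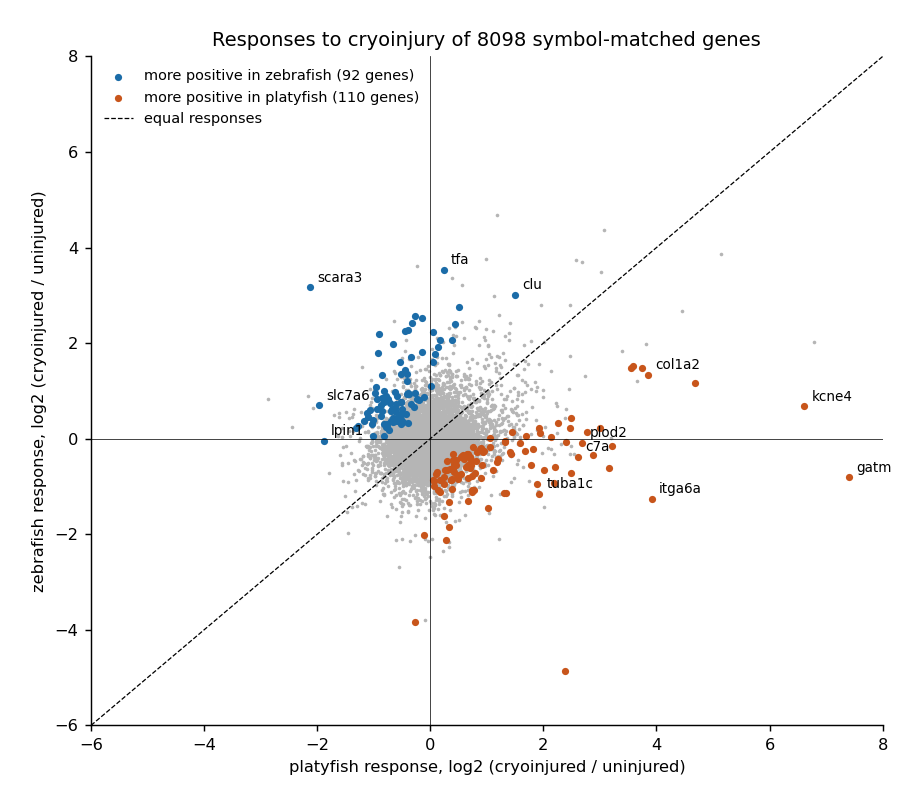
Zebrafish response against platyfish response (log2, cryoinjured over uninjured) for 8098 genes, as grey points. Blue marks the 92 genes with a more positive response in zebrafish and orange the 110 with a more positive response in platyfish. Most coloured points lie in the quadrants where one species has a positive and the other a negative value, and the collagen gene col1a2 is among the 17 orange points positive in both.

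To see what each side was made of, every one of the 202 genes was given 1 broad class by hand after its values had been seen, or none where its role was unsure, which left 80 of 92 and 105 of 110 with a class. These counts describe the sides and carry no test. The other genes tested were not given classes, so no share over all genes stands beside the counts, and they cannot show an excess of a class. The zebrafish side held 20 receptors, ligands and other surface proteins against 3 on the platyfish side, 15 and 2 genes of growth, kinase and calcium signalling, 11 and 1 of endocytic, lysosomal and vesicle trafficking, and 6 and 3 solute transporters and channels. Conversely, it held 0 mitochondrial proteins against 25 on the platyfish side, 2 and 13 genes of matrix and matrix modification, 0 and 11 of the endoplasmic reticulum (ER) and early secretory pathway, 4 and 10 of cytoskeleton, motors and junctions, 0 and 8 of the proteasome and ubiquitin system, and 0 and 4 of translation. Genes of transcription, chromatin and RNA were alike in number, 11 and 10.

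**Figure D2:**
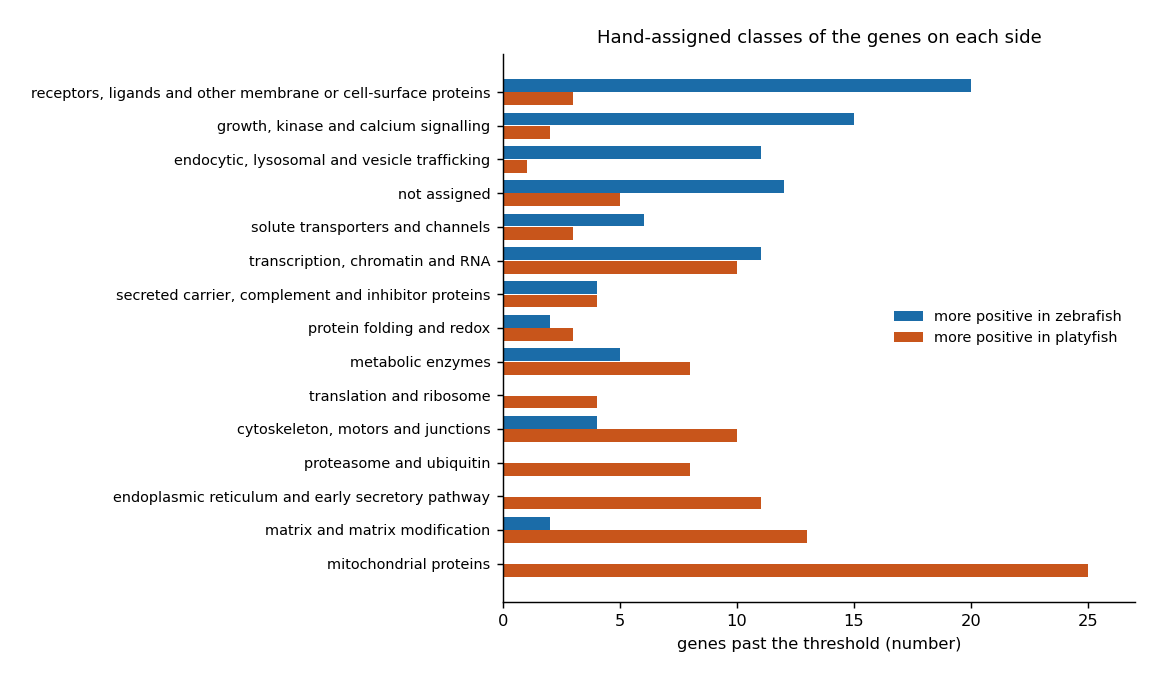
Number of genes past the threshold in each hand-assigned class, for the 92 genes more positive in zebrafish (blue) and the 110 more positive in platyfish (orange). Mitochondrial proteins (25) make the longest orange bar and have no blue one, and surface proteins (20) make the longest blue bar.

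The 13 matrix genes of the platyfish side included 5 collagen chains, and 4 of the 13 rose in zebrafish and 12 in platyfish. Of 13 collagen chains tested, 0 were more positive in zebrafish and 5 in platyfish (col1a1a, col1a1b, col1a2, col5a2a and col6a1), with a median difference of -1.64 from median responses of 0.78 and 1.96. The chain gene col1a2, which encodes a subunit of fibrillar type I collagen, had 3154, 3685 and 3984 normalised counts in cryoinjured and 1698, 1317 and 1271 in uninjured zebrafish. In platyfish it had 5774, 2377 and 6467 in cryoinjured and 351, 325 and 342 in uninjured ventricles. Cryoinjured libraries lay above uninjured ones in both species without overlap, and cryoinjured platyfish replicate 2 was the lowest of its group. The responses were 1.34 ± 0.28 (SE, adjusted p = 0.0268) in zebrafish and 3.84 ± 0.31 (SE, adjusted p = 2.08e-05) in platyfish, a difference of -2.51 ± 0.40 (SE, adjusted p = 0.0121). For col1a1b, a copy of the gene for the other type I subunit, the responses were 1.49 and 3.55 and the difference -2.06 ± 0.36 (SE, adjusted p = 0.0155).

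The other matrix genes of this side included enzymes and glycoproteins. The lysyl hydroxylase gene plod2, whose product modifies collagen so that it can be cross-linked, had 359.7, 567 and 408 normalised counts in cryoinjured and 476, 453 and 483 in uninjured zebrafish, against 1188, 486 and 974 in cryoinjured and 130.2, 152 and 128 in uninjured platyfish. The zebrafish groups overlapped and the platyfish groups did not. Its difference was -2.77 ± 0.38 (SE, adjusted p = 0.00528), and that of ecm2, a matrix protein gene, was -1.92 ± 0.35 (SE, adjusted p = 0.0168). Type V collagen gene col5a2a, whose product sets fibril diameter, differed by -2.64 ± 0.44 (SE, adjusted p = 0.0142), with a response of 0.13 in zebrafish and 2.77 in platyfish. The gelatinase gene mmp2 rose in both species, by 1.52 in zebrafish and 3.58 in platyfish, a difference of -2.06 ± 0.39 (SE, adjusted p = 0.0193). The thrombospondin gene thbs2a (-2.25), the metalloproteinase genes adamts15a (-2.84) and mmp23b (-1.62), the ER prolyl isomerase gene fkbp7 (-2.48), mxra8a (-2.05) and col6a1 (-1.64) completed the class with col1a1a (-2.26).

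Of 27 collagen processing and cross-linking enzymes, 2 were called, both on the platyfish side, with a median difference of -0.40, and 18 of the 27 had a positive response in zebrafish and 25 in platyfish. Over the 12 fits that left out 1 library, that median ran from -0.67 without cryoinjured platyfish replicate 2 to -0.26 without cryoinjured zebrafish replicate 2; ranges of medians given in the same way refer to those fits. Matrix glycoproteins (38 tested) had 1 call towards zebrafish and 2 towards platyfish and a median of -0.15, proteoglycans (13) had 1 and 0 and a median of -0.23, and integrins and focal adhesion (25) had 0 and 2 and a median of -0.09. These medians rested on single libraries: they ran from -0.26 without cryoinjured platyfish replicate 2 to -0.10 without uninjured zebrafish replicate 3 for glycoproteins, from -0.72 without cryoinjured zebrafish replicate 3 to -0.01 without uninjured zebrafish replicate 3 for proteoglycans, and from -0.29 without uninjured zebrafish replicate 1 to -0.0035 without cryoinjured zebrafish replicate 2 for integrins and focal adhesion. Metalloproteinases and their inhibitors (23) had 0 calls towards zebrafish and 3 towards platyfish. Of their differences 11 were positive and 12 negative, with a median of -0.18. It ran from -0.46 without uninjured platyfish replicate 3 to 0.17 without cryoinjured platyfish replicate 2, so the list had no steady direction. On the zebrafish side stood fn1a, which encodes fibronectin, a provisional-matrix protein, with 98.6, 108 and 72.3 normalised counts in cryoinjured and 7.41, 22 and 12.2 in uninjured zebrafish. In platyfish it had 3023, 2342 and 3957 in cryoinjured and 1759, 1636 and 3183 in uninjured ventricles, where the groups overlapped. Its difference was 2.26 ± 0.50 (SE, adjusted p = 0.032). The testican gene spock3 differed by 1.7.

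Fibroblast markers include col1a1a and col1a2, so their sum overlaps with the genes described here. It was 226 to 278 CPM in cryoinjured and 108 to 142 CPM in uninjured zebrafish, and 288 to 577 CPM in cryoinjured and 93.7 to 108 CPM in uninjured platyfish. The other markers did not move alike: the differences were -0.83 for dcn and -1.28 for lum, but 1.80 for tcf21 and 0.61 for pdgfra, none of them called. All 6 of 6 markers had a row in each species, and their part in the result was not tested. With the block, the adjusted p was 0.0521 for col5a2a, 0.0531 for thbs2a, 0.0531 for mxra8a and 0.062 for fkbp7. Left-out libraries ended the calls of mmp2 and col6a1 in 2 of 12 fits each, of col1a1a in 3, of fkbp7 in 4, of mxra8a, fn1a, spock3 and adamts15a in 5 each, of thbs2a in 6 and of mmp23b in 11. The largest adjusted p among those fits was 0.108 for mmp23b, without uninjured platyfish replicate 2, and 0.0956 for fn1a, without uninjured zebrafish replicate 1. The median difference of the 13 collagen chains lay between -1.82 and -1.30 in those fits and was -1.92 without both low-detection libraries.

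Of the 11 genes classed under the ER and early secretory pathway, all on the platyfish side, 1 (pigs) fell in zebrafish and 6 rose in platyfish. The count depends on the class given to sar1ab, a GTPase of ER export on the zebrafish side that was counted under vesicle trafficking, and with it the split is 1 against 11. The reticulocalbin-family gene calua, which encodes a calcium-binding ER protein, had 281, 312 and 471 normalised counts in cryoinjured and 365, 398 and 422 in uninjured zebrafish. In platyfish it had 305, 173 and 269 in cryoinjured and 18, 16.4 and 48.6 in uninjured ventricles. The zebrafish groups overlapped, whereas every cryoinjured platyfish library was above every uninjured one, and the difference was -3.37 ± 0.49 (SE, adjusted p = 0.00633). The translocon component ssr4 had a difference of -1.2 ± 0.20 (SE, adjusted p = 0.0142) and the oligosaccharyltransferase subunit rpn2, which helps attach sugars to new proteins, one of -1.73 ± 0.29 (SE, adjusted p = 0.0149). A second oligosaccharyltransferase subunit, stt3a (-0.92), the disulfide isomerase genes pdia5 (-1.11) and txndc5 (-1.04), and creld1b (-2.47) were called in the same direction.

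Over the list of 69 genes for ER translocation, folding and the unfolded protein response, 0 were called towards zebrafish and 7 towards platyfish, with a median difference of -0.37. Of the 69, 31 had a positive response in zebrafish and 55 in platyfish. The list's median level per library, relative to the uninjured mean, was -0.16, -0.04 and 0.04 in cryoinjured zebrafish and 0.36, 0.32 and 0.28 in cryoinjured platyfish. The chaperone genes hspa5 and hsp90b1 (chosen after their values were seen) had differences of -1.32 and -1.20 with adjusted p values of 0.14 and 0.11, and did not pass. The list for the next compartment had a median nearer to that of all genes: ER-Golgi transport and glycosylation (108 tested) had 1 call towards zebrafish (sar1ab, 1.53), 0 towards platyfish, and a median of -0.09, which ran from -0.17 without uninjured platyfish replicate 3 to -0.07 without cryoinjured platyfish replicate 1. With the block, the adjusted p was 0.0747 for stt3a, 0.062 for pdia5, 0.0701 for txndc5, 0.0751 for creld1b and 0.0752 for sar1ab. These 5 lost their calls in 8, 7, 4, 9 and 8 of the 12 fits with a library left out, with adjusted p values of at most 0.1, 0.105, 0.0615, 0.112 and 0.0883.

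Mitochondrial proteins were the largest class of the platyfish side, and here the movement was mostly in zebrafish: 15 of the 25 genes fell in zebrafish and 7 rose in platyfish. Of 66 proteins of the mitochondrial ribosome tested, 0 were called towards zebrafish and 10 towards platyfish, with a median difference of -0.46. In zebrafish 64 of the 66 had a negative response (median -0.47) and 14 fell past the threshold. In platyfish 32 of the 66 were negative (median 0.01), 1 rose and 0 fell. The median level per library was -0.49, -0.49 and -0.47 in cryoinjured zebrafish against 0.10, -0.12 and 0.02 in uninjured zebrafish, and -0.16, 0.06 and 0.11 in cryoinjured platyfish against 0.05, 0.08 and -0.09 in uninjured platyfish. All 3 cryoinjured zebrafish libraries lay below every other library. The range of the median difference over the fits without 1 library was -0.51 to -0.38, and it was -0.50 without both low-detection libraries.

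The gene chchd1, a small-subunit protein of that ribosome, had 439, 543 and 518 normalised counts in cryoinjured and 782, 825 and 669 in uninjured zebrafish. In platyfish it had 939.6, 1087 and 1088 in cryoinjured and 593, 723 and 689.9 in uninjured ventricles. The groups did not overlap in either species, lower after injury in zebrafish and higher after injury in platyfish, and the difference was -1.24 ± 0.20 (SE, adjusted p = 0.0142). For the large-subunit gene mrpl17 the difference was -1.29 ± 0.23 (SE, adjusted p = 0.0162), with a response of -0.74 ± 0.16 (SE, adjusted p = 0.0329) in zebrafish and one of 0.55 ± 0.16 (SE, adjusted p = 0.0654) in platyfish. The other 8 ribosomal genes were mrps17 (-1.12), mrpl22 (-1.06), mrpl20 (-1.04), mrps34 (-1.03), mrpl27 (-0.96), mrpl11 (-0.91), mrps24 (-0.90) and gadd45gip1 (-0.81). Neither mrpl17 nor any of these 8 kept its call with the block, where mrpl17 had an adjusted p of 0.052 and the 8 had adjusted p values of 0.0541 (mrps34) to 0.107 (mrpl20). They were lost in 1 (mrps17) to 10 (mrpl22, mrpl20, mrps24 and gadd45gip1) of the 12 leave-one-out fits, whereas chchd1 and mrpl17 were kept in all.

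Import, folding and membrane organisation of mitochondria had a similar median. This list, written after the called genes had been seen and so no independent evidence of its direction, had 0 of 69 genes called towards zebrafish, 10 towards platyfish and a median difference of -0.48, with 61 of 69 negative in zebrafish and 27 of 69 in platyfish. The transhydrogenase gene nnt, whose product makes NADPH at the inner membrane, had 4752, 4763 and 5821 normalised counts in cryoinjured and 9482, 8593 and 7982 in uninjured zebrafish. In platyfish it had 1852, 1528 and 1721 in cryoinjured and 1141, 1158 and 1379 in uninjured ventricles. The groups did not overlap in either species, with the lower values after injury in zebrafish and before injury in platyfish, and the difference was -1.24 ± 0.21 (SE, adjusted p = 0.0142). The outer-membrane insertion gene samm50 differed by -1.02 ± 0.19 (SE, adjusted p = 0.0168). The matrix chaperonin genes hspd1 and hspe1, which fold imported proteins together, differed by -1.21 ± 0.24 (SE, adjusted p = 0.0216) and -1.28 ± 0.26 (SE, adjusted p = 0.0225). The remaining members were the cristae-junction gene chchd6a (-1.08), the cyclophilin gene ppifb (-0.76), atad1b (-1.44), fam136a (-1.01) and tmem14ca (-1.32), beside chchd1. With the block the adjusted p was 0.0532 for samm50, 0.0608 for hspd1, 0.0632 for chchd6a, 0.11 for ppifb and 0.0547 for fam136a. Left-out libraries ended the calls of hspd1 in 4 fits, of hspe1, chchd6a and tmem14ca in 5, of atad1b in 4, of fam136a in 8 and of ppifb in 10.

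The lists for energy conversion itself had medians nearer to that of all genes. Of 86 nuclear genes of the respiratory chain and ATP synthase and their assembly factors, 78 were negative in zebrafish and 71 in platyfish, with medians of -0.43 and -0.20 and a median difference of -0.19. The median level per library was -0.36, -0.46 and -0.48 in cryoinjured against 0.05, -0.13 and 0.07 in uninjured zebrafish, and -0.52, -0.16 and -0.01 in cryoinjured against 0.06, 0.19 and -0.26 in uninjured platyfish, so the platyfish groups overlapped and replicate 1 was the lowest. The median difference ran from -0.30 without cryoinjured platyfish replicate 1 to -0.05 without cryoinjured platyfish replicate 3. Its 4 calls were the electron carrier cycsb, a cytochrome c, and the assembly factors cox10 (-1.21), ndufaf8 (-0.94) and ndufaf1 (-0.85). The gene cycsb had 10205, 10160.4 and 13646 normalised counts in cryoinjured and 16709, 17124 and 19666 in uninjured zebrafish, against 2221, 2482 and 1715 in cryoinjured and 772, 918 and 1276 in uninjured platyfish. The groups did not overlap in either species, and the difference was -1.77 ± 0.29 (SE, adjusted p = 0.014). Fatty acid oxidation and the TCA cycle (60 tested) had 0 calls on either side, with medians of -0.36 in zebrafish and -0.28 in platyfish and a median difference of -0.03, which ran from -0.14 without cryoinjured platyfish replicate 1 to 0.06 without uninjured platyfish replicate 3. Its platyfish levels also overlapped, with -0.47, -0.15 and -0.08 in cryoinjured and 0.10, 0.09 and -0.19 in uninjured libraries. At an unadjusted p under 0.05 there were 1 and 9 genes towards zebrafish and platyfish, and DESeq2 called 1 and 3. The assembly factors lost their calls with the block (adjusted p 0.0853, 0.107 and 0.0964 in that order) and in 10, 11 and 9 of the 12 leave-one-out fits.

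**Figure D3:**
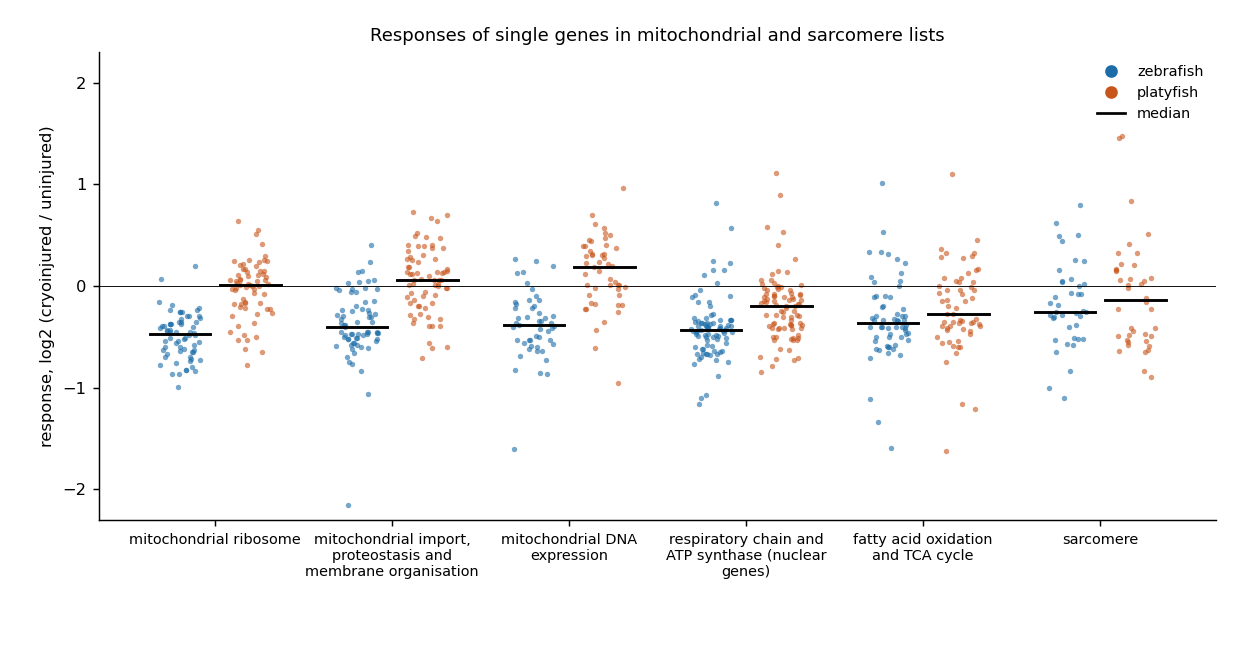
Response (log2, cryoinjured over uninjured) of each tested gene in 5 mitochondrial lists and the sarcomere list, zebrafish in blue and platyfish in orange, with the median as a black line. The median of the mitochondrial ribosome is -0.47 in zebrafish and 0.01 in platyfish, whereas for fatty acid oxidation and the TCA cycle the medians are -0.36 and -0.28.

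Lists of mitochondrial DNA expression factors and of mitochondrial carriers were also written after the called genes had been seen. Of 49 expression factors 0 were called, 0 and 12 had an unadjusted p under 0.05 towards zebrafish and platyfish, DESeq2 called 0 and 5, and the median difference was -0.51 from medians of -0.38 in zebrafish and 0.18 in platyfish. Mitochondrial carriers (28) had 0 calls, 2 and 4 genes at an unadjusted p under 0.05, 0 and 1 by DESeq2, and a median of -0.15, which ran from -0.22 without cryoinjured zebrafish replicate 1 to -0.05 without uninjured zebrafish replicate 3. Sarcomere genes, the contractile proteins of the same heart muscle cells, had 0 calls among 40 in the difference, with 3 and 5 at an unadjusted p under 0.05, 1 and 0 by DESeq2, medians of -0.25 in zebrafish and -0.14 in platyfish, and a median difference of -0.11, which ran from -0.21 without cryoinjured zebrafish replicate 1 to 0.0058 without cryoinjured platyfish replicate 1. The cardiomyocyte marker sums given above were lower in cryoinjured than in uninjured zebrafish and overlapped between the platyfish groups, and their part in the mitochondrial values was not tested. The transcription factor gene mef2aa, which acts in muscle, was called on the platyfish side (-0.84 ± 0.20 (SE, adjusted p = 0.042)), but lost its call with the block (adjusted p 0.0996) and in 11 of the 12 leave-one-out fits.

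Genes of protein degradation and RNA handling were also on the platyfish side, where 1.36% of all genes tested were called. The hand-assigned class of transcription, chromatin and RNA was even, with 11 genes on the zebrafish side and 10 on the platyfish side. Of 152 proteasome and ubiquitin genes, 0 were called towards zebrafish and 8 (5.26%) towards platyfish, and 9 and 41 had an unadjusted p under 0.05 in those directions. The median difference was -0.14, which ran from -0.17 without uninjured zebrafish replicate 2 to -0.09 without cryoinjured platyfish replicate 2. Of the 8, 1 (psmc1a) fell in zebrafish and 5 rose in platyfish. The core subunit gene psmb2 had 651, 599 and 636 normalised counts in cryoinjured and 832, 809.6 and 703 in uninjured zebrafish, against 1507, 1631 and 1574 in cryoinjured and 893, 994 and 1068 in uninjured platyfish. Cryoinjured libraries lay below uninjured ones in zebrafish and above them in platyfish, and the difference was -0.99 ± 0.18 (SE, adjusted p = 0.0168). The others were the core subunits psma4 (-0.92), psma8 (-0.95) and psmb4 (-0.93), the regulatory ATPase psmc1a (-1.3), the deubiquitinases psmd14 (-0.91) and usp14 (-1.27), and the ubiquitin-conjugating enzyme ube2s (-1.84). Zebrafish counts were low for psmc1a, with 27.5, 18.3 and 23 in cryoinjured and 39.8, 50.6 and 60.8 in uninjured libraries. For ube2s they were 13.3, 16.2 and 10.9 against 32.4, 37.4 and 18.2, so both differences rest on few counts. Only ube2s kept its call with the block (adjusted p 0.0444); the other 7 had adjusted p values of 0.0532 (psmb2) to 0.0983 (psma4). Leaving out 1 library ended no call of psmb2, 3 of 12 for ube2s, and 5 to 9 for the rest.

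Splicing and RNA processing (114 tested) had a median of -0.15, which ran from -0.21 without cryoinjured platyfish replicate 2 to -0.03 without cryoinjured platyfish replicate 1. It had 0 calls towards zebrafish and 3 towards platyfish, or 2.63% against 1.36% of all genes tested. These were the spliceosome components lsm4 (-0.96 ± 0.20 (SE, adjusted p = 0.0239)) and snrpb (-0.89 ± 0.22 (SE, adjusted p = 0.0476)) and the muscle RNA-binding protein gene rbpms2b (-1.67 ± 0.36 (SE, adjusted p = 0.0289)). In platyfish, rbpms2b had only 87.3, 47.2 and 54.3 normalised counts in cryoinjured and 14.4, 31.7 and 16.6 in uninjured ventricles, so its difference rests on few counts. The apurinic endonuclease gene apex1, which repairs DNA, differed by -1.85 ± 0.35 (SE, adjusted p = 0.0191). The 4 translation genes on this side were denr (-1.09), pelo (-1.23), ak6 (-1.1) and wdr4 (-1.46), and each rose in platyfish. All 8 genes of this paragraph lost their calls with the block, where adjusted p values ran from 0.0531 (apex1) to 0.114 (snrpb), and in 1 (apex1) to 11 (snrpb) of the 12 leave-one-out fits. Cytosolic ribosomal proteins (67) had 0 calls, 0 and 2 genes at an unadjusted p under 0.05 and 0 calls by DESeq2, although 26 of the 67 were positive in zebrafish and 63 in platyfish, at a median difference of -0.20 that ran from -0.34 without uninjured platyfish replicate 2 to -0.09 without uninjured platyfish replicate 1.

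Of the 10 cytoskeletal and junction genes on the platyfish side, 3 fell in zebrafish and 8 rose in platyfish. The alpha-tubulin gene tuba1c had 310.0, 219 and 239 normalised counts in cryoinjured and 588, 542 and 573 in uninjured zebrafish, against 211, 106 and 168 in cryoinjured and 35.9, 54.2 and 37.1 in uninjured platyfish. The groups did not overlap in either species and moved in opposite directions, with a difference of -3.07 ± 0.36 (SE, adjusted p = 0.00249). Because tubulin paralogs are very alike in sequence, reads may have been shared among them and this value is uncertain. The collapsin-response gene dpysl3, whose product binds tubulin in nerve growth cones, had 738, 825 and 873 normalised counts in cryoinjured and 899.6, 697 and 771 in uninjured zebrafish, against 848, 664 and 899.8 in cryoinjured and 175, 190.1 and 184 in uninjured platyfish. The zebrafish groups overlapped, and in platyfish every cryoinjured library was more than 3 times as high as every uninjured one. Its difference was -2.09 ± 0.22 (SE, adjusted p = 0.00183).

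The adhesion genes itga6a, a laminin-binding integrin subunit, and fblim1, a filamin-binding focal adhesion protein, differed by -5.17 ± 0.62 (SE, adjusted p = 0.00249) and -1.81 ± 0.29 (SE, adjusted p = 0.0129). For itga6a the uninjured platyfish libraries had only 6.29, 3.07 and 2.56 normalised counts. The actin-linked gene abraa, with only 5.39, 5.11 and 6.4 normalised counts in uninjured platyfish, differed by -2.78 ± 0.47 (SE, adjusted p = 0.0144) and the tubulin-polymerisation gene tppp3 by -2.67 ± 0.47 (SE, adjusted p = 0.0162). These 4 genes, tuba1c and dpysl3 kept their calls in all leave-one-out fits and with the block. In platyfish, itga6a and abraa had enough counts to be tested only through the cryoinjured libraries, where they were high. Their p values are therefore no separate support for a rise. The actin-monomer binder cap2 (-0.97), the LIM protein gene crip2l (-1.22) and the kinase genes pak1 (-1.69) and pak7 lost theirs with the block (adjusted p 0.0632, 0.0556, 0.0701 and 0.0585 in that order), and pak1 also in 7 leave-one-out fits. For pak7 no fold is given because it had only 0, 3.05 and 0 normalised counts in cryoinjured and 13.9, 18.7 and 15.2 in uninjured zebrafish, against 261, 282 and 322 in cryoinjured and 350.2, 390.4 and 298 in uninjured platyfish. Smooth muscle and myofibroblast contractile genes (22) had 0 calls, 4 and 4 genes at an unadjusted p under 0.05, 3 and 1 calls by DESeq2, and a median of -0.24, which ran from -0.45 without cryoinjured zebrafish replicate 1 to -0.18 without uninjured zebrafish replicate 1.

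Secreted proteins and protease inhibitors were found on both sides, with different members. On the platyfish side were the complement gene c7a, part of the membrane attack complex, the serpin gene serpinf1, which encodes the anti-angiogenic factor PEDF in mammals, the collectin gene colec10 and the anticoagulant gene pros1 (-1.68), and all 4 rose in platyfish. The gene c7a had 556, 671 and 666 normalised counts in cryoinjured and 799.5, 686 and 973 in uninjured zebrafish, against 278, 193 and 335 in cryoinjured and 34.1, 65.4 and 32 in uninjured platyfish. Its zebrafish groups did not overlap but the zebrafish response did not pass the threshold, its platyfish groups were far apart, and the difference was -2.98 ± 0.37 (SE, adjusted p = 0.00249). The differences of serpinf1 and colec10 were -3.77 ± 0.59 (SE, adjusted p = 0.0121) and -1.94 ± 0.35 (SE, adjusted p = 0.0168), and pros1 lost its call with the block (adjusted p 0.0853) and in 9 leave-one-out fits. The Wnt-binding gene sfrp5 (-1.75 ± 0.34 (SE, adjusted p = 0.0197)) and the cytokine gene cntf (-2.32) were also on this side, and each lost its call in 1 leave-one-out fit (adjusted p 0.0585 without uninjured platyfish replicate 2 and 0.0523 without uninjured platyfish replicate 2).

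On the zebrafish side were tfa, the iron carrier transferrin, clu, a secreted chaperone, rbp4, the retinol carrier of plasma, and serpinb1, a serpin that inhibits neutrophil proteases in mammals. Transferrin had 2641, 3630.1 and 5609.9 normalised counts in cryoinjured and 347, 409 and 264 in uninjured zebrafish, against 148, 93.5 and 170.2 in cryoinjured and 108, 128 and 114 in uninjured platyfish. The zebrafish groups lay far apart and the platyfish groups overlapped, with a difference of 3.31 ± 0.40 (SE, adjusted p = 0.00249). For serpinb1 the difference was 2.7 ± 0.34 (SE, adjusted p = 0.00249), with a rise of 2.25 in zebrafish. The gene clu rose in both species, by 3.02 in zebrafish and 1.49 in platyfish, a difference of 1.52 ± 0.35 (SE, adjusted p = 0.0385), and rbp4 differed by 2.03 ± 0.47 (SE, adjusted p = 0.0405). The call for clu was lost with the block (adjusted p 0.1) and in 9 leave-one-out fits, and that for rbp4 in 9 leave-one-out fits. Summed liver markers, which include tfa, were 125 to 248 CPM in cryoinjured and 10.6 to 15.8 CPM in uninjured zebrafish, and 4.83 to 7.53 CPM in cryoinjured and 5.07 to 5.98 CPM in uninjured platyfish. In zebrafish 6 of the 6 liver markers had a row, 1 of them at 0 in all libraries, and in platyfish 5 did, with ttr absent. The zebrafish sum was almost entirely tfa itself, so it is no separate measure of other liver transcripts. A wider list of liver transcripts (9 tested, tfa among them) had 2 calls towards zebrafish and 0 towards platyfish. Its median responses were 0.88 in zebrafish and -0.23 in platyfish, with a median difference of 0.77. Its median level was 0.11, 1.24 and 0.66 in cryoinjured and 0.27, -0.18 and -0.09 in uninjured zebrafish, which overlapped. The part of liver transcripts in the values of tfa and rbp4 was not tested.

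A pair of platyfish-side genes had almost no counts in uninjured platyfish, and both were chosen here after their values had been seen. The gene gatm, which encodes the first enzyme of creatine synthesis, had raw counts of 65, 37 and 62 in cryoinjured and 83, 97 and 100 in uninjured zebrafish, against 27, 11 and 30 in cryoinjured and 0, 0 and 0 in uninjured platyfish. The potassium channel subunit gene kcne4 had raw counts of 638, 862 and 774 in cryoinjured and 572, 423 and 422 in uninjured zebrafish, against 15, 75 and 55 in cryoinjured and 0, 1 and 0 in uninjured platyfish. Both were called, with adjusted p values of 0.00768 and 0.0168, and no fold is given because the uninjured platyfish counts were at or near 0. In platyfish, both had enough counts to be tested only through the cryoinjured libraries, where they were high. Their p values are therefore no separate support for a rise. The call for kcne4 was lost in 2 leave-one-out fits (adjusted p up to 0.0571, without uninjured platyfish replicate 1). The serine synthesis gene psat1 was on the same side, with 82.6, 75.1 and 63.5 normalised counts in cryoinjured and 84.3, 97.9 and 100.3 in uninjured zebrafish, against 18.4, 25 and 38.6 in cryoinjured and only 1.8, 1.02 and 8.96 in uninjured platyfish. So was the glycolytic gene pfkla (-1.81 ± 0.36 (SE, adjusted p = 0.0216)). The gene pfkla lost its call in 3 leave-one-out fits and psat1 in 8. Like gatm and kcne4, psat1 had enough counts in platyfish only through the cryoinjured libraries.

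The zebrafish side was led by surface and signalling proteins. Of the 20 receptors, ligands and other surface proteins, 11 rose in zebrafish and 4 fell in platyfish. The scavenger receptor gene scara3 had 112, 175 and 239.8 normalised counts in cryoinjured and 19.5, 30.8 and 8.1 in uninjured zebrafish, against 5.51, 2.78 and 2.09 in cryoinjured and 12.6, 18.4 and 16.6 in uninjured platyfish. The groups did not overlap in either species, and the difference was 5.3 ± 0.74 (SE, adjusted p = 0.00528), although platyfish counts were low. The tetraspanin gene cd82b differed by 1.36 ± 0.23 (SE, adjusted p = 0.0149), and appb, an amyloid precursor family gene, by 1.58 ± 0.29 (SE, adjusted p = 0.0172). The chemokine gene cxcl12a, which guides migrating cells, had 168, 342 and 384 normalised counts in cryoinjured and 51, 83.6 and 50.7 in uninjured zebrafish, and its platyfish groups overlapped, with a difference of 2.66 ± 0.63 (SE, adjusted p = 0.042). The receptor gene fgfr1a (1.69, with only 5.56, 6.6 and 10.1 normalised counts in uninjured zebrafish), the endocytic receptor lrp1aa (1.7), the Wnt inhibitor frzb (1.55), the Hedgehog-binding gas1a (1.96), the chemokine receptor ccr9a (1.87) and vsir (1.01), a T-cell checkpoint ligand in mammals, also rose in zebrafish. Of these 7 with cxcl12a, lrp1aa and gas1a kept their calls with the block (adjusted p 0.0436 and 0.0187), and the others had 0.0616 (frzb) to 0.101 (vsir). Left-out libraries ended 2 of 12 calls for gas1a, 5 for lrp1aa and 8 to 10 for the rest.

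Growth-factor and chemokine lists had positive medians with few calls. The IGF, FGF, neuregulin, PDGF and midkine list (36) had 3 calls towards zebrafish, 0 towards platyfish and a median difference of 0.41, which ran from 0.27 without uninjured zebrafish replicate 1 to 0.49 without cryoinjured zebrafish replicate 1. Its calls besides fgfr1a were the phosphatase genes dusp2 and dusp6, which switch off ERK and other MAP kinases and are themselves induced by that signal. The gene dusp6 had 1171, 1239 and 1418 normalised counts in cryoinjured and 586, 648 and 552 in uninjured zebrafish, against 1474, 1133 and 981 in cryoinjured and 1064, 1331 and 1151 in uninjured platyfish. The zebrafish groups were apart and the platyfish groups overlapped, and the difference was 1.08 ± 0.23 (SE, adjusted p = 0.0299). For dusp2 it was 1.96 ± 0.37 (SE, adjusted p = 0.0191). With the block the adjusted p was 0.0786 for dusp6 and 0.064 for dusp2, and dusp6 lost its call in 7 leave-one-out fits. Chemokines, cytokines and receptors (37) had 2 calls towards zebrafish and 0 towards platyfish with a median of 0.45, and Wnt and Notch signalling (39) had 2 and 1 with a median of 0.28, which ran from 0.12 without cryoinjured zebrafish replicate 1 to 0.40 without cryoinjured platyfish replicate 1, including the Notch-modifying gene mfng (1.11, adjusted p with the block 0.0815, lost in 10 leave-one-out fits).

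Within cells, genes of mTOR, Akt and growth hormone signalling had 6 of 52 calls towards zebrafish, 0 towards platyfish and a median difference of 0.34, from medians of 0.05 and -0.27; this list too was written after the called genes had been seen. The median level was 0.07, 0.02 and 0.10 in cryoinjured zebrafish and -0.23, -0.24 and -0.28 in cryoinjured platyfish, and the leave-one-out range of the median difference was 0.30 to 0.38. In zebrafish 1 member rose and 0 fell, and in platyfish 0 rose and 6 fell. The growth hormone receptor gene ghrb had 3415, 3288 and 3317 normalised counts in cryoinjured and 2354, 2286 and 2036 in uninjured zebrafish, against 677, 798 and 596 in cryoinjured and 1069, 1343 and 936 in uninjured platyfish. Cryoinjured libraries lay above uninjured ones in zebrafish and below them in platyfish, with a difference of 1.28 ± 0.22 (SE, adjusted p = 0.0155). The members do not act in one direction: deptor (1.3 ± 0.26 (SE, adjusted p = 0.0216)) and akt1s1 (1.07 ± 0.25 (SE, adjusted p = 0.0387)) encode inhibitors bound to mTOR, phlpp1 (1.06) a phosphatase that removes an activating phosphate from Akt, ralgapa2 (0.92) a GTPase-activating subunit, and sgk1 (1.34 ± 0.25 (SE, adjusted p = 0.0181)) a kinase related to Akt.

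With the block, deptor, sgk1 and ghrb kept their calls, and the adjusted p was 0.0516 for akt1s1, 0.0616 for phlpp1 and 0.0747 for ralgapa2. Left-out libraries ended 1 of 12 calls for sgk1 (without uninjured platyfish replicate 2), 2 for phlpp1, 5 for deptor and ralgapa2 and 8 for akt1s1. Calcium-dependent signalling genes were on the same side. The calcium/calmodulin kinase gene camk2g2 had 426, 418 and 562 normalised counts in cryoinjured and 269, 375 and 383 in uninjured zebrafish, against 64.3, 72.2 and 68.9 in cryoinjured and 139, 162 and 141 in uninjured platyfish. The platyfish groups were apart, as were the zebrafish ones in the other direction, and the difference was 1.56 ± 0.27 (SE, adjusted p = 0.0155). Its paralog camk2g1 differed by 0.72 ± 0.17 (SE, adjusted p = 0.042), lost with the block (adjusted p 0.127) and in 10 leave-one-out fits, and tesca, a calcium-binding regulator, by 1.55 ± 0.28 (SE, adjusted p = 0.0168).

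Some genes of amino acid transport and of the lysosome were also on the zebrafish side, where 1.14% of all genes tested were called. Of 31 genes of amino acid transport and serine-glycine synthesis, 4 transporters (12.9%) were called towards zebrafish and 1 enzyme (psat1, above) towards platyfish (3.23%). The median difference was 0.12, which ran from 0.07 without uninjured zebrafish replicate 1 to 0.24 without cryoinjured platyfish replicate 3. The cationic and neutral amino acid exchanger gene slc7a6 had 336, 341 and 541 normalised counts in cryoinjured and 241, 305 and 201 in uninjured zebrafish, against 56, 73.2 and 71 in cryoinjured and 198, 272 and 312 in uninjured platyfish. It fell in platyfish without overlap, and the difference was 2.67 ± 0.36 (SE, adjusted p = 0.00453). For slc43a3b, a nucleobase and fatty acid transporter in mammals despite its amino acid transporter family, the difference was 2.74 ± 0.40 (SE, adjusted p = 0.00633), with a rise of 2.42 in zebrafish. The arginine transporter slc7a3a (1.62) and the glutamine transporter slc38a3b (0.93) each lost their calls in 10 leave-one-out fits, slc38a3b also with the block (adjusted p 0.0945).

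Lysosome and V-ATPase genes (70) had 2 calls towards zebrafish, or 2.86% against 1.14% of all genes tested, and 0 towards platyfish. Their median difference was 0.32, which ran from 0.21 without cryoinjured platyfish replicate 1 to 0.41 without cryoinjured platyfish replicate 2. The response was positive for 49 of 70 in zebrafish and 22 of 70 in platyfish. At an unadjusted p under 0.05 there were 19 and 1. The proton pump subunit gene atp6v0a1a differed by 1.1 ± 0.19 (SE, adjusted p = 0.0155) and the lysosomal protease gene lgmn by 1.02 ± 0.20 (SE, adjusted p = 0.0207). With the block they had adjusted p values of 0.0521 and 0.064, and lgmn lost its call without uninjured zebrafish replicate 3 (adjusted p 0.0545). Endocytic and vesicle trafficking (190, listed after the called genes had been seen) had 7 calls towards zebrafish and 2 towards platyfish and a median of 0.10, which ran from 0.02 without cryoinjured platyfish replicate 1 to 0.15 without cryoinjured platyfish replicate 2. Its calls included the sorting nexin gene snx17 (0.95) on the zebrafish side and snx27b (-1.67) on the platyfish side. The call for snx17 was lost with the block (adjusted p 0.0751) and in 9 leave-one-out fits, and that for snx27b in 6. The small GTPase gene arl4aa rose in zebrafish and differed by 1.29 ± 0.22 (SE, adjusted p = 0.0146). Metabolic genes of the zebrafish side included lipid enzymes: lpin1, which makes diacylglycerol and acts as a coactivator of fat oxidation genes in mammals, had 328, 229 and 282 normalised counts in cryoinjured and 297, 377 and 191 in uninjured zebrafish, against 309, 257 and 329.9 in cryoinjured and 899.7, 1302 and 1103 in uninjured platyfish. It fell in platyfish only, with a difference of 1.84 ± 0.33 (SE, adjusted p = 0.0168), and the acyl-CoA synthetase gene acsbg2 differed by 1.35 ± 0.25 (SE, adjusted p = 0.0188).

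Of the 11 genes of transcription, chromatin and RNA on the zebrafish side, 6 fell in platyfish and 1 rose in zebrafish, and the others passed in neither species. They included the Polycomb gene cbx7a, with 2928, 3276 and 2994 normalised counts in cryoinjured and 2378, 2857 and 2206 in uninjured zebrafish, against 1394, 1349 and 1602 in cryoinjured and 3069, 3408 and 2355 in uninjured platyfish. All groups were apart, and the difference was 1.33 ± 0.23 (SE, adjusted p = 0.0149). The oxidative-stress regulator nfe2l2a, which activates antioxidant genes, differed by 1.16 ± 0.23 (SE, adjusted p = 0.0216), and txnipa, whose product binds thioredoxin, rose in zebrafish and differed by 0.98 ± 0.22 (SE, adjusted p = 0.0363). The clock-output repressor ciarta differed by 1.45 and the zinc-finger gene bnc2, which marks connective-tissue cells, by 2.85 ± 0.63 (SE, adjusted p = 0.032). The block ended the calls of txnipa (adjusted p 0.0996), ciarta (0.0747) and bnc2 (0.0768), and left-out libraries ended 4 of 12 calls for nfe2l2a, 6 for ciarta, 8 for bnc2 and 9 for txnipa.

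Several lists had medians away from that of all genes with almost no single gene called. Immediate early and stress-response transcription factors (52) had a median difference of 0.55, with median levels of 0.40, 0.48 and 0.40 in cryoinjured zebrafish and 0.13, -0.11 and -0.10 in cryoinjured platyfish. Their 1 call, the cell-cycle inhibitor gene cdkn1a, went the other way (-2.8 ± 0.64 (SE, adjusted p = 0.0386)), while 19 and 2 genes had an unadjusted p under 0.05 towards zebrafish and platyfish, and DESeq2 called 10 and 1. Nearest to the threshold, and named after their values were seen, were junba (1.76, adjusted p 0.052) and socs3a (1.81, adjusted p 0.058). Macrophage and neutrophil genes (28) had a median of 0.70, which ran from 0.42 without uninjured zebrafish replicate 3 to 0.89 without uninjured zebrafish replicate 2, with 1 call (vsir), 9 and 0 genes at an unadjusted p under 0.05, and 6 and 0 by DESeq2. Uninjured zebrafish libraries themselves spread over -0.05, 0.46 and -0.44 in this list, below the 0.61, 1.02 and 1.08 of cryoinjured zebrafish. Macrophage markers summed to 97.9 to 181 CPM in cryoinjured and 44.4 to 55.9 CPM in uninjured zebrafish, and to 232 to 301 CPM in cryoinjured and 153 to 326 CPM in uninjured platyfish. In platyfish 5 of the 6 markers had a row, with mpeg1.1 absent. Among the markers tested, marco differed by 1.91 (adjusted p 0.118) and csf1ra by 0.12 (adjusted p 0.899), and neither passed. The call for cdkn1a was lost in 9 leave-one-out fits (adjusted p up to 0.104, without uninjured platyfish replicate 1).

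Cell-cycle lists had negative medians and no calls. DNA replication genes (48) had a median difference of -0.76, from 0.09 in zebrafish and 0.86 in platyfish, with 0 calls, 0 and 16 genes at an unadjusted p under 0.05, and 0 and 5 calls by DESeq2. In zebrafish 1 of the 48 rose and 29 had a positive response, and in platyfish 13 rose and 44 were positive. The median level was -0.08, 0.32 and 0.11 in cryoinjured zebrafish, within the range of 0.20 to -0.16 of uninjured zebrafish except in replicate 2, and 0.74, 0.85 and 0.99 in cryoinjured platyfish, above all uninjured ones. The replication clamp gene pcna averaged 525 ± 80.2 normalised counts in cryoinjured and 420.1 ± 79.5 in uninjured zebrafish, and 1483 ± 139.7 in cryoinjured and 755 ± 124 in uninjured platyfish (SD, n = 3 each). Its difference was -0.65 ± 0.25 (SE, adjusted p = 0.18), which did not pass. Mitosis and cytokinesis genes (40) had a median of -0.40 with 0 calls, 1 and 0 at an unadjusted p under 0.05 and 0 by DESeq2, and the median ran from -0.74 without uninjured zebrafish replicate 3 to 0.04 without uninjured zebrafish replicate 2, spanning 0. Nucleolus and ribosome biogenesis genes (69) had a median of -0.34, which ran from -0.41 without cryoinjured platyfish replicate 3 to -0.12 without cryoinjured platyfish replicate 1, with 0 calls, 2 and 14 at an unadjusted p under 0.05 towards zebrafish and platyfish, and 1 and 3 by DESeq2. Cryoinjured platyfish replicate 1, at 0.51 against 0.05 and 0.01 in replicates 2 and 3, carried the platyfish level of that list.

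Lists with medians near that of all genes included calcium handling (30, median -0.04, 2 calls towards zebrafish, both camk2g genes), translation factors and tRNA synthetases (56, -0.05, 0 calls), TGF-beta, BMP and activin signalling (37, 0.09, 0 calls), interferon response (30, 0.05, 0 calls) and cholesterol and fatty acid synthesis (25, -0.05, 0 calls). Leaving out 1 library moved these 5 medians to values between -0.14 and 0.19, and each of them changed sign. At an unadjusted p under 0.05 the 4 lists without calls had 4 and 5, 3 and 6, 1 and 0, and 2 and 0 genes, and DESeq2 called 2 and 1, 1 and 2, 0 and 0, and 1 and 0. A p that misses the threshold does not show that the responses were alike: the sarcomere gene cmlc1, a light chain of cardiac myosin, had a difference of -0.03 ± 0.30 (SE, adjusted p = 0.964), and the TCA cycle gene mdh2 one of -0.04 ± 0.24 (SE, adjusted p = 0.951).

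**Figure D4:**
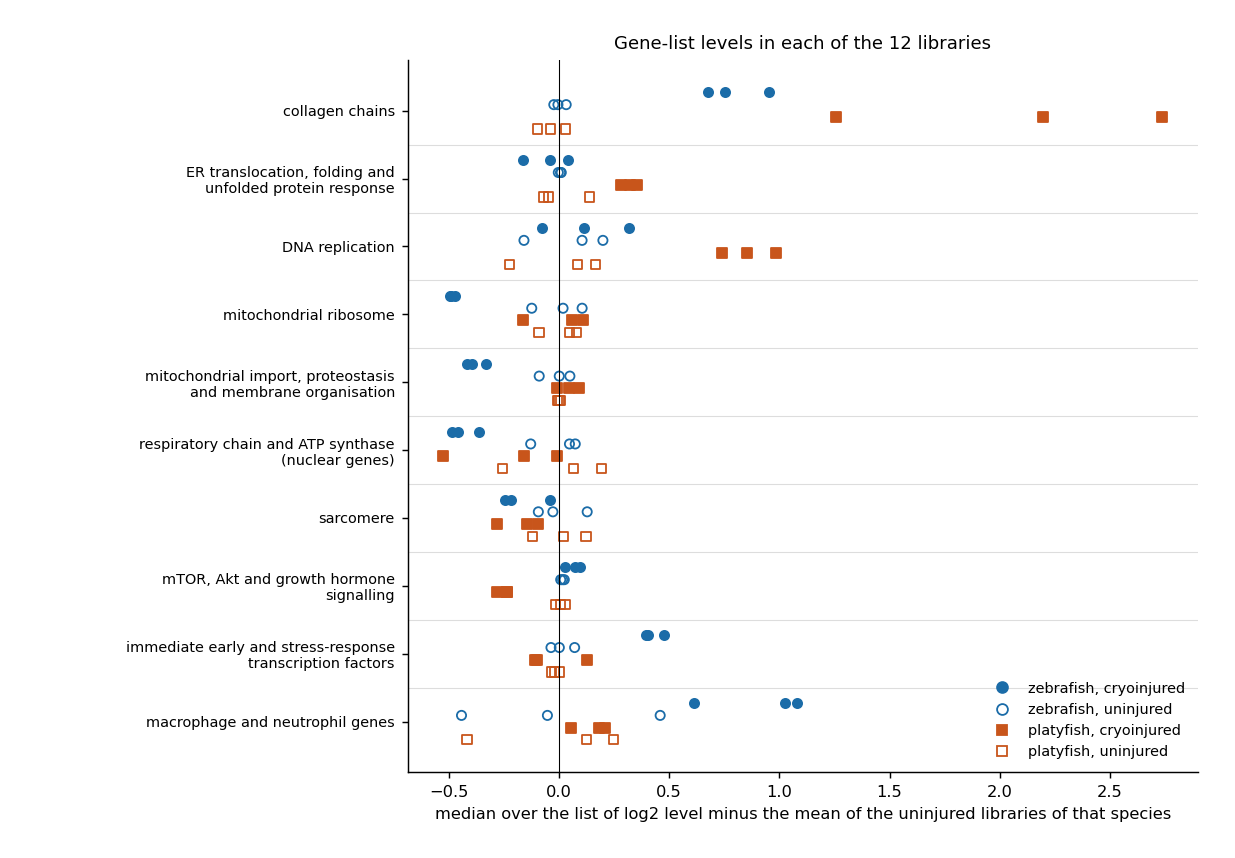
Median over each of 10 gene lists of the log2 level minus the mean of the uninjured libraries of the same species, 1 symbol per library (filled for cryoinjured, open for uninjured, blue circles for zebrafish, orange squares for platyfish). Filled blue circles stand apart at the low end for the mitochondrial ribosome (-0.49 to -0.47), filled orange squares at the high end for DNA replication (0.74 to 0.99), and both filled groups lie at or below 0 for the sarcomere list.

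**Figure D5:**
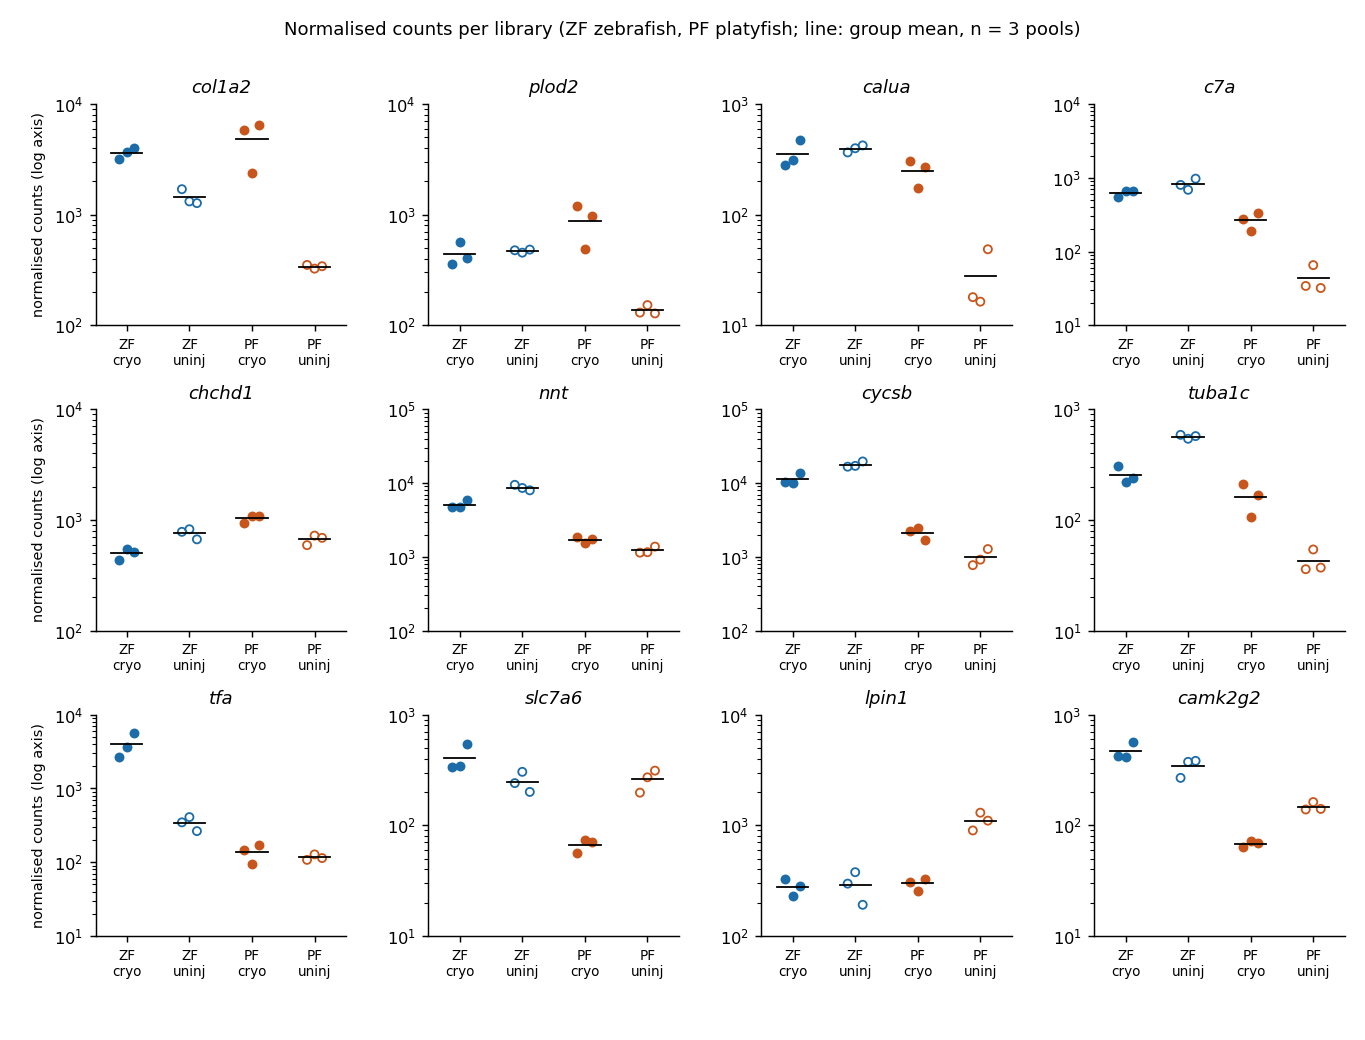
Normalised counts (log axis) of 12 genes in each library of the 4 groups, cryoinjured filled and uninjured open, with the group mean as a line. The upper row (col1a2, plod2, calua, c7a) shows platyfish increases. In zebrafish, col1a2 was also higher after injury and c7a lower. The middle row (chchd1, nnt, cycsb, tuba1c) shows movements in opposite directions in the 2 species. The lower row shows tfa with its zebrafish increase and slc7a6, lpin1 and camk2g2 with platyfish decreases. Of these, slc7a6 and camk2g2 were also higher after injury in zebrafish.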

How the data were processed

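Bulk stranded mRNA libraries of pooled ventricles were analysed from the raw counts per gene that the authors deposited, 1 table per species. Per the submitters' processing notes, FastQC, HISAT2 2.2.1, featureCounts 2.0.1 and DESeq2 1.38.3 were used. GRCz11 is the build they name, and the platyfish build is not given in the sources used here. The deposited normalised signal is each count divided by 1 constant per library, and was used only for gene symbols and to check that scaling.

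Groups followed the sample titles. Genes were matched by lower-case symbol, counts were scaled by TMM within each species over its whole table, and genes passing filterByExpr in both species were fitted in 1 robust quasi-likelihood model (edgeR 4.0.16, R 4.3.3) with 4 group means. All p-values adjusted by Benjamini-Hochberg come from this model unless another tool is named. For normalised counts, each count was divided by its library's effective size and multiplied by the species' mean size. Levels of lists use log2 CPM with a prior count of 2. Alternatives used DESeq2 1.42.0, limma 3.58.1, other scalings and filters, summed copies, left-out libraries and the replicate number as a block. The labels call that number a batch, and correlations of same-numbered deviations were 0.124, 0.139 and 0.0117 in zebrafish and -0.0973, -0.154 and -0.204 in platyfish for replicates 1, 2 and 3. The fitting code was tested on simulated data.

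The rule for named genes took, from each of 63 lists, up to 2 called members per side with the largest difference and a group mean of 100 or more normalised counts in both species, the most abundant member of a list with no call, and the 5 largest called genes per side in no list, 83 genes in all, of which 1 without a call is not reported here. Other genes named were chosen after their values were seen. Members and lists were chosen with earlier results of these data known, and 8 lists were written after the called genes had been seen. No deposited sequences or coordinates are printed.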

Additional observations from a re-analysis of the deposited data

Results flagged for a closer look

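The genes that the naming rule selected and that responded differently in the 2 species are collected here with their difference (log2, zebrafish response minus platyfish response). The difference itself was tested, as the interaction in edgeR's quasi-likelihood fit with Benjamini-Hochberg adjustment, at n = 3 pools per group. The 29 genes with a more positive response in zebrafish were tfa (3.31), serpinb1 (2.7), slc7a6 (2.67), cxcl12a (2.66), rbp4 (2.03), gas1a (1.96), dusp2 (1.96), lpin1 (1.84), si:ch1073-459j12.1 (1.79), spock3 (1.7), lrp1aa (1.7), kifap3a (1.67), slc7a3a (1.62), gbp (1.6), zgc:154093 (1.59), camk2g2 (1.56), frzb (1.55), sar1ab (1.53), clu (1.52), rhoab (1.47), ciarta (1.45), nfe2l2a (1.16), mfng (1.11), atp6v0a1a (1.1), dusp6 (1.08), lgmn (1.02), vsir (1.01), txnipa (0.98) and camk2g1 (0.72). Of these, si:ch1073-459j12.1, zgc:154093, gbp and kifap3a were in no gene list.

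The 32 genes with a more positive response in platyfish were mef2aa (-0.84), snrpb (-0.89), ndufaf8 (-0.94), lsm4 (-0.96), cap2 (-0.97), psmb2 (-0.99), chchd1 (-1.24), usp14 (-1.27), hspe1 (-1.28), mrpl17 (-1.29), hspa12b (-1.52), pak1 (-1.69), sfrp5 (-1.75), cycsb (-1.77), pfkla (-1.81), fblim1 (-1.81), apex1 (-1.85), ecm2 (-1.92), colec10 (-1.94), mxra8a (-2.05), mmp2 (-2.06), dpysl3 (-2.09), creld1b (-2.47), fkbp7 (-2.48), col1a2 (-2.51), col5a2a (-2.64), tppp3 (-2.67), plod2 (-2.77), c7a (-2.98), tuba1c (-3.07), calua (-3.37) and serpinf1 (-3.77). No gene changed the sign of its difference under any of the alternatives run. The largest differences in each direction among the genes selected by the rule were those of tfa and serpinf1, which kept their calls with the replicate block and in all 12 fits that left out 1 library.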

How the results depend on the processing

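The counts of 92 and 110 genes stayed within 1.5 times under another size-factor method, scaling over all 12 libraries, removal of the mitochondrial genome, no low-count filter, a mean of at least 50 counts, limma voom with and without a variance per species, and summed gene copies. With the replicate number as a block they were 36 and 47, with DESeq2 319 and 312, and without both low-detection cryoinjured zebrafish libraries (replicates 2 and 3, an alternative chosen after seeing the data) 8 and 13. With library size alone the count towards platyfish was 51 and the median response of all genes moved to 0.14 in both species. Leaving out 1 library at a time gave 31 to 172 and 35 to 308 genes. The cause of these shifts was not tested, except that fewer libraries entered the fits that left some out.

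Of the 61 genes named by the rule and called, 0 changed sign in these settings. The number that stayed past the threshold was 44 with library size alone, 32 with the block, 53 to 61 in the other settings with all libraries and 28 to 60 when 1 library was left out. Sign changes were seen only among named genes that were not called, all near 0 or with a large error. With library size alone the values were 0.0188 for acacb, 0.0166 for eef1g and 0.00629 for mdh2. Without both low-detection libraries they were 0.148 for acacb, 0.0299 for tpm4a, 0.0179 for cmlc1 and -0.757 for h2az2a. The value for eef1g was 0.0108 with median-ratio factors and 0.00526 with DESeq2. The value for h2az2a was -0.0706 with limma voom, -0.0699 with a variance per species, -0.0331 with the block and -0.313 with summed copies. The cause of these changes was not tested.

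The ranges over the fits without 1 library were -0.204 to 0.128 for acacb, -0.159 to 0.31 for h2az2a, -0.145 to 0.0973 for eef1g, -0.286 to 0.0172 for ddx21, -0.189 to 0.156 for mdh2, -0.0891 to 0.669 for ckmt2a, -0.209 to 0.162 for cmlc1 and -1.46 to 4.83 for ckma, each spanning 0.

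Depth limits genes with few counts. In platyfish these include scara3, bnc2, rbpms2b, psat1, itga6a, abraa, gatm and kcne4. In zebrafish they include pak7, fgfr1a, psmc1a and ube2s. The low-count filter was passed only through cryoinjured libraries by psat1, itga6a, abraa, gatm and kcne4 in platyfish and by fgfr1a in zebrafish. It was passed only through uninjured libraries by scara3 in platyfish and by pak7 in zebrafish. Calls of these genes are no separate support for a change.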
